A study of Mus musculus with 18 samples.

Results

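The inflammatory caspase locus of mouse chromosome 9 holds the genes Casp1, Casp4 and Casp12 side by side. Its members were chosen by position, as the gene models that lie wholly between 5.29 and 5.38 Mb of chromosome 9 on mouse build mm9, and 3 of the 27473 gene models in the deposited table met this rule. The locus itself was chosen with earlier results of these data known. RNA sequencing was done on 18 libraries of 3T3-L1 adipocytes, a mouse fibroblast line differentiated into fat cells, at passage 15 and in 6 groups of 3. All cells had been transduced as mature adipocytes with a lentivirus, for 6 days per the labels. One arm compared cells labelled as overexpressing the transcription factor Irf3 (Irf3_2D, a name whose 2D is not explained) with cells that received EGFP, a green fluorescent protein, in its place. The other arm compared cells given a short hairpin against Irf3 (shIrf3) with cells given a luciferase hairpin (shLuc), each with and without lipopolysaccharide (LPS), a cell wall component of Gram-negative bacteria. For knockdown cells the labels give a further 6 days of LPS, renewed with the medium, and whether this wording covers shLuc cells is not clear. The labels do not say how many hairpins were used, nor whether libraries of 1 group are separate cultures. The p-values therefore rest on the spread between libraries, part or all of which may be technical.

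Caspases are cysteine proteases that cut proteins after aspartate. The inflammatory caspases act in innate immunity rather than in ordinary apoptosis. Casp1 is the protease of the canonical inflammasomes, protein platforms that switch it on so that it matures the cytokines interleukin 1 beta and interleukin 18. Mouse Casp4, also called Casp11, binds bacterial LPS in the cytosol, and both it and Casp1 cleave gasdermin D, whose pores kill the cell by pyroptosis. Casp12 belongs to the same family by sequence and has been tied to the endoplasmic reticulum, and its role is less settled. LPS outside the cell is sensed by Toll-like receptor 4, which signals to NF-kappaB and to Irf3.

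The Casp1 gene model (uc009obr.1) spanned chr9:5298517-5307281 with 10 exons and 1513 bases of exon. Casp4 (uc009obu.2) spanned chr9:5308860-5336791 with 9 exons and 3181 bases, and Casp12 (uc009obx.2) chr9:5345476-5373034 with 11 exons and 3796 bases. All 3 lie on the plus strand of mm9, 1578 bases apart between Casp1 and Casp4 and 8684 bases apart between Casp4 and Casp12. No other gene model of the table overlapped their exons. The table holds no gene symbols. Names follow the rule that defines the locus, and which model is which was read from exon lengths, as 9 of 10 Casp1, 8 of 9 Casp4 and 9 of 11 Casp12 exons had the length of an exon of that gene in the reference annotation, against at most 4 for another gene of the locus. The 2 longest exons hold 63.0% of the Casp4 and 55.5% of the Casp12 exon length. Levels per base of exon therefore depend on whether the RNA held these stretches.

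**Figure D1:**
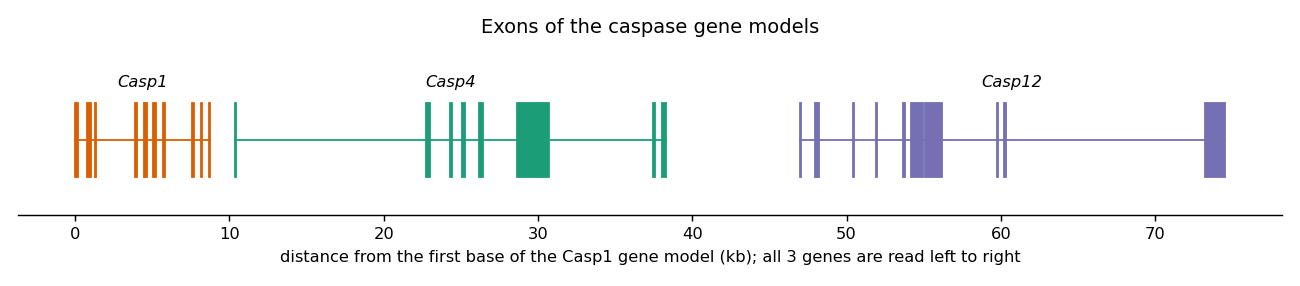
Exons (boxes) of the 3 caspase gene models along the locus, by distance in kb from the first base of Casp1. The genes stand head to tail in the order Casp1, Casp4, Casp12, and the shortest exons are drawn wider than scale so that they can be seen.

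The start regions of the 3 genes are shown as a description, and no link between their letters and the levels of the genes was tested. The windows run from 250 bases before to 50 bases after the start site, are RefSeq sequences of build GRCm38.p6 on the plus strand, and were matched by symbol. They lie at chr9:5298267-5298566 for Casp1, chr9:5308599-5308898 for Casp4 and chr9:5345226-5345525 for Casp12 in that build. RefSeq gives a further Casp4 window that starts 11 bases later and holds the same matches. Capitals mark matches on either strand to 5 sets of letters, namely the interferon response element core GAAANNGAA, the gamma-activated site TTCNNNGAA, the kappaB letters GGNNNTTCC, the C/EBP letters TTGCNNAA and the AP-1 letters TGANTCA.
Casp1: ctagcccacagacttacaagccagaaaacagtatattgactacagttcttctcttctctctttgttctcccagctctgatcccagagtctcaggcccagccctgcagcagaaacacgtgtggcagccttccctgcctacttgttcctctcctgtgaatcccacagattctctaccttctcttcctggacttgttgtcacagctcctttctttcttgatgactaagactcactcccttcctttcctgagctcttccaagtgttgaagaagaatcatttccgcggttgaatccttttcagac
Casp4: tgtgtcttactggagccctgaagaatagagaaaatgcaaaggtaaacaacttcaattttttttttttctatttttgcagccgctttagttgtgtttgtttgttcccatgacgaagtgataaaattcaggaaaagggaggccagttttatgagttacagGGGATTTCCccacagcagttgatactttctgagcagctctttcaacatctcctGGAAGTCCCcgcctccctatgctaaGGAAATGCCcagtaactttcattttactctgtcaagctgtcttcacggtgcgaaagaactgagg
Casp12: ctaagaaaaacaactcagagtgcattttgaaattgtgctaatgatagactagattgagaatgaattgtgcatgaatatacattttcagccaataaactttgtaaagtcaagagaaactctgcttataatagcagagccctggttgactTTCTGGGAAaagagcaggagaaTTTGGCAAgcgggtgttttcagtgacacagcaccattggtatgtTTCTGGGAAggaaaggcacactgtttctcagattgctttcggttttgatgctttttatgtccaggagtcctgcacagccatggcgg

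The Casp4 window held 3 matches to the kappaB letters, at positions -92, -39 and -14 counted from 0 at the start site, and none to the other 4 sets. Counted from the start site of the further Casp4 window, the same kappaB matches lay at -103, -50 and -25. At least 1 match to these letters was found in 18.5% of the 32851 RefSeq windows of the same length, and 3 or more in 0.180%. The Casp12 window held 2 matches to the gamma-activated site letters (TTCTGGGAA each time), at -102 and -36, and 1 to the C/EBP letters at -80. At least 1 match to the gamma-activated site letters was found in 8.30% of all windows and 2 or more in 0.457%, and 10.8% held the C/EBP letters. The Casp1 window held no match to any of the 5 sets, of which the interferon response element core occurred in 8.56% and the AP-1 letters in 7.81% of all windows. A match describes letters and does not show that a factor bound there.

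Total counts per library ran from 22143302 to 34368259, and the 3 genes passed the low-count filter in all 18 libraries. Identifiers had 0 matches in the name tables at hand and were not paired with symbols outside the locus. The level of Irf3, adipocyte markers and other inflammasome genes were therefore not analysed here. How far Irf3 was lowered by its hairpin or raised in Irf3_2D cells was thus not checked. Some libraries stood apart from their group. Chromosome M took 14.2% of the counts of shLuc replicate 1 and 2.88% of those of replicate 2, against 4.21% to 7.17% in the other 10 libraries of the knockdown arm. Counts of shLuc replicate 1 differed from those of replicates 2 and 3 with chi-square statistics of 350 and 199 per degree of freedom. Between replicates 2 and 3 of shLuc the statistic was 55.9. Within Irf3_2D, replicate 2 differed from replicates 1 and 3 with statistics of 112 and 91.7, against 10.8 between replicates 1 and 3. Results on the 3 genes that rest on these libraries are given with and without them.

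Per base of exon, Casp12 was the highest and Casp1 the lowest of the 3 in each of the 18 libraries. In shLuc adipocytes without LPS, Casp12 averaged 13.2 ± 2.13 RPKM (reads per kilobase of exon scaled to library size, SD, n = 3), Casp4 3.33 ± 0.311 and Casp1 0.564 ± 0.0672. Casp12 thus lay above 70.3% of the 15083 gene models that passed the filter over all 18 libraries, Casp4 above 41.3% and Casp1 above 20.1%. With LPS the shLuc cells had 17.3 ± 1.19 RPKM of Casp12, 8.88 ± 0.210 of Casp4 and 1.06 ± 0.358 of Casp1. Casp1 rested on few reads, from 10 to 76 counts per library, whereas Casp4 had 264 to 1018 and Casp12 1194 to 3173. The 10 counts of Casp1 in shIrf3 replicate 1 have a 95% Poisson interval from 4.80 to 18.4, which covers counting error only.

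Casp4 had the largest fold change of the locus with LPS, in both hairpin backgrounds. In CPM, counts scaled to library size over all 18 libraries, Casp4 was at 31.4, 27.4 and 29.4 in shIrf3 adipocytes with LPS, against 10.9, 10.8 and 11.4 in shIrf3 adipocytes without it. In shLuc adipocytes it was at 28.6, 27.5 and 28.7 CPM with LPS, against 9.51, 10.7 and 11.5 CPM without LPS. The lowest library with LPS lay far above the highest without it, whichever hairpin was used. The fitted log2 fold change was 1.46 ± 0.08 in shIrf3 cells (SE, edgeR quasi-likelihood test with Benjamini-Hochberg adjusted p = 5.10e-09) and 1.42 ± 0.08 in shLuc cells (adjusted p = 6.56e-09), or 2.76-fold and 2.68-fold. Casp4 ranked 124 and 104 by fold change from the highest of 14970 gene models, and its call held in all 22 alternatives run for each of these comparisons. In shLuc cells its log2 fold change was 1.37 without shLuc replicate 1 and 1.41 without shLuc replicate 2.

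Casp12 also rose with LPS, by less. It was at 61.8, 56.6 and 63.0 CPM in shIrf3 cells with LPS, against 50.4, 45.6 and 45.2 CPM in shIrf3 cells without it. In shLuc cells the values were 66.2, 70.0 and 61.0 CPM with LPS, against 43.3, 59.0 and 47.6 CPM without LPS. In both backgrounds the libraries with LPS lay above those without, narrowly so in shLuc cells, where replicate 2 without LPS was the highest of its group. The log2 fold change was 0.41 ± 0.09 in shIrf3 cells (SE, edgeR adjusted p = 0.0108) and 0.40 ± 0.09 in shLuc cells (edgeR adjusted p = 0.0100), a rise of 1.33-fold and 1.32-fold. The call in shLuc cells was kept without shLuc replicate 1 (log2 fold change 0.32, edgeR adjusted p = 0.0160) and without shLuc replicate 2 (0.52, edgeR adjusted p = 0.000199). It was lost in 3 of 22 alternatives, which were leaving out shLuc_LPS replicate 2 (0.35, edgeR adjusted p = 0.0611), fitting only the 6 libraries compared (0.41) and fitting all 18 together (0.40). In shIrf3 cells it was lost in 5 of 22, at 0.36 with all 18 libraries together and at 0.38 to 0.39 without shIrf3 replicate 2 or 3 or shIrf3_LPS replicate 1 or 3 (edgeR adjusted p from 0.0514 to 0.133).

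Casp1, the least abundant of the 3, rose in the same direction with wider error. Its levels were 1.42, 1.29 and 1.34 CPM in shIrf3 cells with LPS, against 0.415, 0.622 and 0.757 CPM in shIrf3 cells without it. In shLuc cells they were 0.981, 1.98 and 1.84 CPM with LPS, against 0.737, 0.922 and 0.903 CPM without LPS. Replicate 1 with LPS was close to the untreated shLuc libraries, and its 29 counts (95% Poisson interval 19.4 to 41.6) lay outside the interval of the 63 counts of replicate 2 (48.4 to 80.6). The log2 fold change was 1.21 ± 0.29 in shIrf3 cells (SE, edgeR adjusted p = 0.0155) and 0.92 ± 0.26 in shLuc cells (edgeR adjusted p = 0.0395). Without shLuc replicate 1 the value in shLuc cells was 0.83 and no longer passed (edgeR adjusted p = 0.0867), and without shLuc replicate 2 it was 0.95 (edgeR adjusted p = 0.0454). The call in shLuc cells was lost in 10 of 22 alternatives, at the lowest value of 0.73 without shLuc_LPS replicate 2 (edgeR adjusted p = 0.181), and the log2 fold change stayed between 0.73 and 1.15. In shIrf3 cells it was lost in 3 of 22, without shIrf3 replicate 1 (1.03), shIrf3 replicate 2 (1.23) or shIrf3_LPS replicate 1 (1.16), at edgeR adjusted p from 0.0535 to 0.0830.

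All 3 caspases were thus called higher with LPS in each background, where 4.17% of the 14970 gene models tested in shIrf3 cells and 4.27% in shLuc cells were called higher. Without shLuc replicate 1 these shares were 5.81% and 6.30%, and without shLuc replicate 2 they were 7.18% and 6.47%. Casp1 was not called in shLuc cells without shLuc replicate 1 (edgeR adjusted p = 0.0867). In the other fits without either library, all 3 caspases were called. The median log2 fold change of the 3 was 1.21 in shIrf3 and 0.92 in shLuc cells, against 0.00 and -0.01 over all gene models tested. Since the locus was chosen with earlier results of these data known, these contrasts with all gene models are a description and not a test. In RNA from whole cultures, more cells of a type and more RNA per cell cannot be told apart. Whether untreated cells were kept as long as treated ones is not given, so an effect of LPS cannot be told apart from one of culture time.

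**Figure D2:**
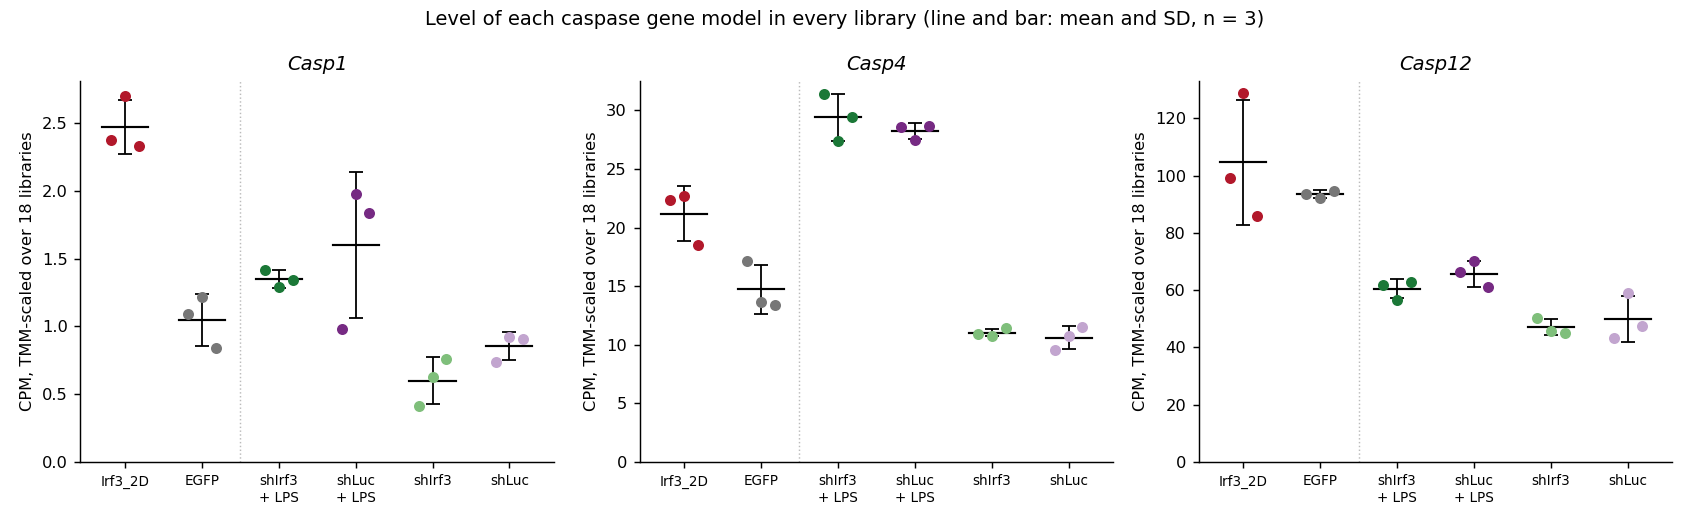
CPM of Casp1, Casp4 and Casp12 (y axis, from 0) in each library, with points for libraries and lines and bars for mean and SD of 3. Casp4 with LPS sits between 27.4 and 31.4 CPM in both hairpin groups, above all libraries without LPS, and the dotted line parts the 2 arms.

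Whether the rises were unequal was tested on ratios taken within each library, since these do not depend on how libraries are scaled. Casp4 per base of exon was 0.606, 0.578 and 0.558 of Casp12 in shIrf3 cells with LPS, against 0.259, 0.282 and 0.301 in shIrf3 cells without it. In shLuc cells the ratios were 0.515, 0.468 and 0.561 with LPS, against 0.262, 0.217 and 0.288 without LPS. Every library with LPS had a higher ratio than every library of the arm without it. Over both backgrounds the ratio was 2.05-fold higher with LPS (log2 difference 1.03, n = 6 libraries each, exact permutation test within hairpins, two-sided p = 0.00500, the smallest its 400 permutations can give, adjusted p = 0.0150 over 3 ratios). The ratio of Casp1 to Casp12 was 1.57-fold higher (exact permutation p = 0.0250, adjusted p = 0.0375, higher in 5 of 6 libraries than the highest untreated one of the same background). For Casp4 to Casp1 the difference was 0.39 on the log2 scale and did not pass (exact permutation p = 0.0750, adjusted p = 0.0750). These 3 tests were added after the data had been seen. Leaving out any 1 of the 12 libraries kept the call for Casp4 to Casp12 and ended that for Casp1 to Casp12 in 7 cases. Among these 7 were the tests without shLuc replicate 1 and without shLuc replicate 2 (exact permutation adjusted p = 0.0675 in each). The ratio of Casp4 to Casp1 passed without shIrf3 replicate 1 or without shLuc_LPS replicate 2. As a share of the locus's raw counts, Casp4 made up 32.2% ± 0.890 in shIrf3 cells with LPS, against 18.8% ± 1.08 without LPS, and 29.6% ± 1.87 in shLuc cells with LPS, against 17.4% ± 1.99 without it (SD, n = 3 each).

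**Figure D3:**
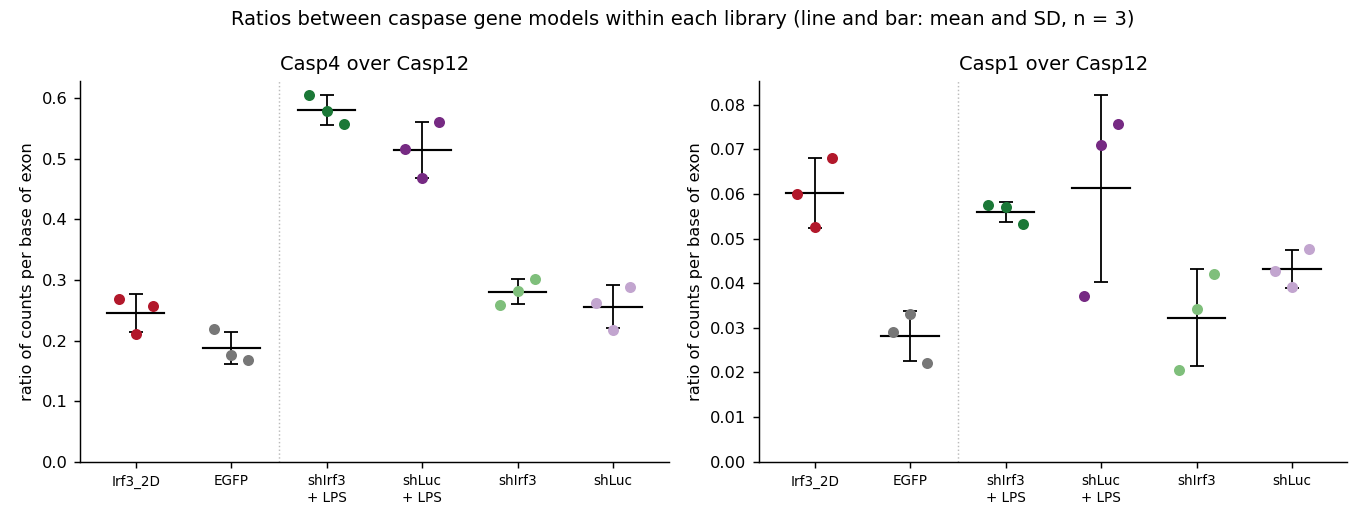
Ratio of Casp4 to Casp12 (left) and of Casp1 to Casp12 (right) in counts per base of exon (y axes, from 0) in each library, with lines and bars for mean and SD of 3. The Casp4 ratio sits between 0.468 and 0.606 in the 6 libraries with LPS and between 0.168 and 0.301 in the other 12.

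Knockdown of Irf3 was compared with the luciferase hairpin to ask whether these genes depend on it, at rest and under LPS. Without LPS, 0 of the 3 caspases were called, where 8.56% of the 14970 gene models were called in either direction. Casp4 averaged 11.0 ± 0.317 CPM in shIrf3 cells and 10.6 ± 0.990 CPM in shLuc cells (SD, n = 3 each), with overlapping libraries. Its log2 fold change was 0.05, with a 95% interval from -0.14 to 0.23 (edgeR adjusted p = 0.810). For Casp12 the fold change was -0.10, from -0.30 to 0.10 (edgeR adjusted p = 0.577). Casp1 had the widest interval, from -1.17 to 0.15 around -0.51 (edgeR adjusted p = 0.356), and averaged 0.598 ± 0.172 CPM in shIrf3 cells against 0.854 ± 0.102 CPM in shLuc cells. Without shLuc replicate 1 the 3 values were -0.01 for Casp4, -0.18 for Casp12 and -0.59 for Casp1, and without shLuc replicate 2 they were 0.05, 0.02 and -0.46. None of the 3 was called in either fit, where the share of all gene models called was 18.1% without replicate 1 and 13.6% without replicate 2.

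Under LPS, too, 0 of the 3 caspases were called, where 8.20% of gene models were called in either direction. That share was 13.5% without shLuc replicate 1 and 14.8% without shLuc replicate 2, again with none of the 3 called. Casp4 averaged 29.4 ± 2.00 CPM in shIrf3 cells with LPS and 28.2 ± 0.669 CPM in shLuc cells with LPS (SD, n = 3 each), which gave a log2 ratio of 0.09 with a 95% interval from -0.08 to 0.25 (edgeR adjusted p = 0.609). The interval was -0.29 to 0.10 for Casp12 and -0.74 to 0.30 for Casp1. In folds, the Casp4 interval runs from 0.944 to 1.19. That neither comparison passed does not show that the hairpins act alike.

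Whether the LPS response itself differed between hairpins was tested as the interaction, where 0 of the 3 caspases were called. The edgeR test called 0 of 14970 gene models (0% called), with 848 at an unadjusted p under 0.05, whereas DESeq2 called 9 higher and 3 lower and limma-voom 0. Without shLuc replicate 1, edgeR called 4 higher and 11 lower, with 1561 at an unadjusted p under 0.05, and without shLuc replicate 2 it called 14 higher and 2 lower, with 1987. The difference in log2 fold change was 0.04 for Casp4, with a 95% interval from -0.21 to 0.29 (edgeR adjusted p = 0.997). It was 0.00 for Casp12, from -0.27 to 0.28 (edgeR adjusted p = 0.999), and 0.29 for Casp1, from -0.55 to 1.13 (edgeR adjusted p = 0.997). Without shLuc replicate 1 the differences were 0.099 for Casp4, 0.086 for Casp12 and 0.38 for Casp1, and without shLuc replicate 2 they were 0.054, -0.10 and 0.26, with none of the 3 called in either fit. The interval was narrowest for Casp4 and widest for Casp1.

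In the overexpression arm Casp1 had the largest fold change of the 3, a difference from Casp4 that was not tested. Casp1 was at 2.38, 2.70 and 2.33 CPM in Irf3_2D cells, against 1.09, 1.22 and 0.840 CPM in EGFP cells, and the groups did not overlap. The log2 fold change was 1.21 ± 0.23 (SE, edgeR adjusted p = 0.0408), or 2.32-fold, with a 95% interval from 0.69 to 1.73. Within each library, Casp1 per base of exon was 0.0601, 0.0526 and 0.0681 of Casp12 in Irf3_2D cells, against 0.0291, 0.0332 and 0.0222 in EGFP cells, again without overlap. Casp1 was the 1 caspase of 3 called, where 0.811% of 13931 gene models were called higher. That share was 3.32% without Irf3_2D replicate 2, and without any 1 of the other 5 libraries between 0 and 170 gene models were called higher. The value stayed between 1.08 and 1.33 in all 15 alternatives, but the call was lost in 7 of them. It was kept without Irf3_2D replicate 2 (2.21-fold, edgeR adjusted p = 0.0215) and lost without any one of Irf3_2D replicates 1 and 3 and EGFP replicates 1, 2 and 3, at edgeR adjusted p from 0.0809 to 0.162.

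Casp4 was at 22.4, 22.7 and 18.5 CPM in Irf3_2D cells, against 17.2, 13.6 and 13.4 CPM in EGFP cells. The groups did not overlap, yet the difference did not pass, with 0.52 ± 0.16 as its log2 fold change (SE, edgeR adjusted p = 0.204, 95% interval from 0.16 to 0.88). With all 18 libraries in one fit it passed at the same size (0.53, edgeR adjusted p = 0.00635), and without Irf3_2D replicate 2 the value was 0.47 (edgeR adjusted p = 0.0722). Casp12 was at 99.2, 129 and 85.9 CPM in Irf3_2D cells, against 93.7, 92.2 and 94.8 CPM in EGFP cells. The EGFP libraries lay inside the range of the Irf3_2D ones, where replicate 2 was highest. The log2 fold change was 0.16 with a 95% interval from -0.19 to 0.50 (edgeR adjusted p = 0.844), and -0.02 without that replicate.

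**Figure D4:**
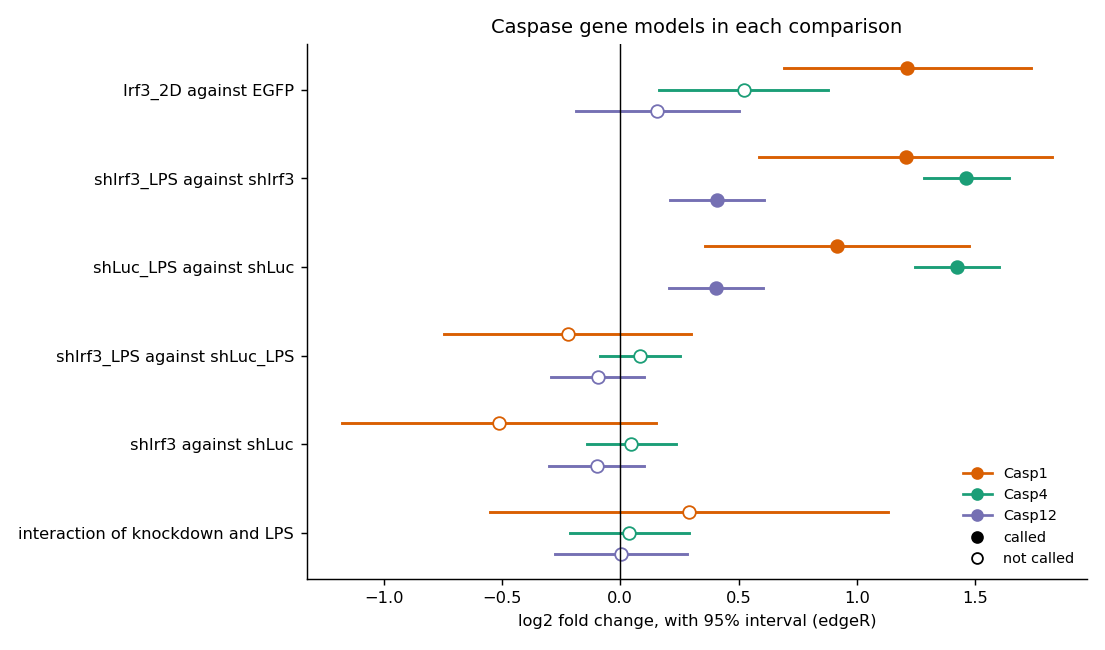
Log2 fold change of each caspase (x axis) with its 95% interval in the 6 comparisons, with filled points for genes called at an edgeR adjusted p under 0.05. The 3 genes are called with LPS in both hairpin groups, Casp1 alone is called with Irf3_2D, and 0 are called for knockdown or the interaction.

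**Figure D5:**
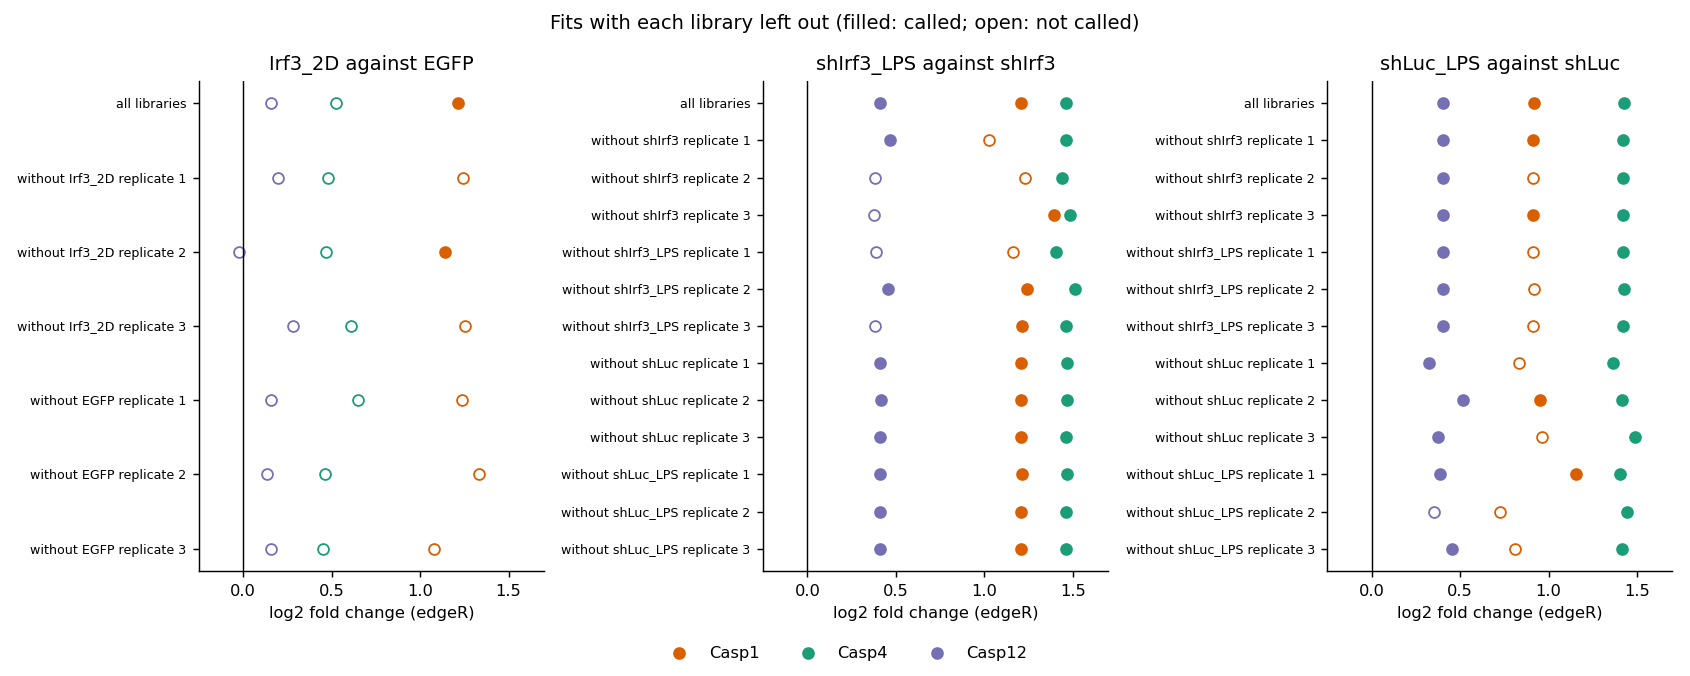
Log2 fold change of each caspase (x axis) with all libraries and with each library left out in turn (rows), for the 3 comparisons with a call, filled where called. Casp4 stays filled between 1.37 and 1.51 in each LPS fit, whereas Casp1 and Casp12 open in some and Casp1 keeps 1 of 6 fits with Irf3_2D.

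Ordered by mean CPM, Casp4 was highest in shIrf3 with LPS, then shLuc with LPS, Irf3_2D, EGFP, shIrf3 and shLuc. The 2 groups with LPS overlapped each other, as did shIrf3 and shLuc without LPS, and the other neighbours in that order did not. For Casp1 the order was Irf3_2D, shLuc with LPS, shIrf3 with LPS, EGFP, shLuc and shIrf3, where Irf3_2D stood clear of the next group and shIrf3 with LPS of EGFP. Casp12 was highest in Irf3_2D and EGFP, which overlapped. The other 4 groups followed in the order shLuc with LPS, shIrf3 with LPS, shLuc and shIrf3, each overlapping its neighbour. Levels across the 2 arms are descriptive, because vector, culture time and arm cannot be told apart.

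Over the 12 libraries of the knockdown arm, log2 CPM of Casp4 correlated with that of Casp12 at Pearson's r = 0.866 and with that of Casp1 at r = 0.820, and Casp1 with Casp12 at r = 0.761. These libraries share the LPS contrast, so the values are a description. The gene model outside the locus whose pattern was most like Casp4 was uc007crg.2, which the sources used here do not name (chr1:136078981-136086608 on mm9, 10 exons, r = 0.994 and Spearman's rho = 0.888). It ranged from 12.7 to 14.7 CPM in the 6 libraries with LPS, against 0.373 to 0.622 CPM in the 6 without. For Casp12 it was uc008rez.1, also without a name here (chr3:122636519-122687365, 16 exons, r = 0.967 and rho = 0.951), at 34.4 to 38.0 CPM with LPS, against 27.3 to 34.2 CPM without. The closest model to Casp1, on chromosome 19, reached r = 0.942. Over all 18 libraries a different gene model was closest for each of the 3, at r from 0.929 to 0.976.

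The flanks of the locus gave no call. Of the 3 nearest gene models on each side, 3 of 6 passed the filter, and none of those was called in any of the 6 comparisons. Those tested lay 911648 and 966785 bases away on the left and 1555469 bases away on the right. Flanking gene models nearer than these did not pass the filter and were not tested. The nearest on the left ended 502283 bases away and had 1 to 9 counts per library, and the nearest on the right began 795578 bases away with 0 to 2 counts.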

How the data were processed

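RNA from differentiated 3T3-L1 adipocytes was depleted of ribosomal RNA and made into libraries with a TruSeq RNA kit v2, per the labels' protocols, and no source at hand tells whether counting used strand. The authors deposited 1 table of raw counts per gene model on mm9, and the submitters' processing notes name TopHat2 2.0.14 and featureCounts 1.4.6 among other tools, with edgeR. From the deposited counts, each arm was fitted with edgeR 4.0.16 (R 4.3.3) by the quasi-likelihood test, with group as the only term, the filterByExpr filter, TMM scaling and Benjamini-Hochberg adjustment over all gene models tested, at a threshold of 0.05. The overexpression fit held 6 libraries and 13931 gene models, and the knockdown fit 12 libraries and 14970. DESeq2 1.42.0, limma-voom (limma 3.58.1), other scalings, filters and sets of libraries, a replicate block and leaving out each library were tried. CPM and RPKM were computed with TMM factors over 18 libraries, and the most similar gene model was the one with the highest Pearson's r of log2 CPM (prior count 2) over the knockdown arm. All gene models within the interval are named, with the 3 nearest on each side. Identifiers had 0 matches in the name tables at hand, so lists of inflammasome genes and cell type markers were not analysed here. The members and lists were chosen with earlier results of these data known. Count intervals are exact Poisson intervals and cover counting error only.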

Additional observations from a re-analysis of the deposited data

How the results depend on the processing

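The number of the 3 caspases called with Irf3_2D was 1, and it was 0 with library totals only, 0 with the replicate block, 2 with all 18 libraries in one fit and 0 to 1 when each library was left out in turn. With LPS, 3 were called in each background. In shLuc cells this became 1 with only the 6 libraries compared, 2 with limma-voom and 1 to 3 with libraries left out. The gene lost with limma-voom was Casp1 (limma-voom adjusted p = 0.0794). In shIrf3 cells the number was 1 to 3 with libraries left out. With all 18 libraries in one fit, Casp12 was lost in both backgrounds (edgeR adjusted p = 0.0894 in shLuc and 0.133 in shIrf3 cells). The counts for knockdown and for the interaction were 0 in all alternatives run. Whether replicate numbers pair the libraries is not known, and 3 libraries per group are too few to settle it. Correlations of same-numbered deviations ran from -0.19 to 0.22, and in no comparison were all above 0.1. The replicate block gave Casp1 a log2 fold change of 1.23 with Irf3_2D (edgeR adjusted p = 0.0544) and changed no other call of the 3 genes. With a library left out, the ratio of Casp4 to Casp12 with LPS differed by 0.98 to 1.08 on the log2 scale, that of Casp1 to Casp12 by 0.50 to 0.81 and that of Casp4 to Casp1 by 0.22 to 0.50. Some values near 0 changed sign, none of them called. Leaving out single libraries moved Casp12 with Irf3_2D between -0.024 and 0.28, and with shIrf3 against shLuc Casp4 between -0.010 and 0.11 and Casp12 between -0.18 and 0.022. The interaction moved between -0.028 and 0.099 for Casp4 and between -0.10 and 0.086 for Casp12. It was -0.0068 for Casp4 with library totals and -0.0024 with all 18 libraries, and for Casp12 it was -0.0013 with limma-voom, -0.038 with library totals, -0.013 without chromosome M and -0.034 with all 18 libraries. The causes were not tested. Of all gene models, edgeR called 113 higher and 89 lower with Irf3_2D, DESeq2 236 and 245, and the fit of all 18 libraries 464 and 478. Leaving out EGFP replicate 3 took the edgeR calls over the arm of 6 libraries to 0 higher and 5 lower, EGFP replicate 2 to 1 and 6, and EGFP replicate 1 to 170 and 105. Leaving out Irf3_2D replicate 1 gave 4 higher and 9 lower, replicate 3 of that group 41 and 14, and its replicate 2 473 and 548. Counts of calls in the knockdown arm also moved by over 1.5 times with the libraries fitted, as for shIrf3 against shLuc, with 696 higher and 585 lower over 12 libraries, 235 and 201 over 6, 1623 and 1121 without shLuc replicate 1 and 1175 and 888 without shLuc replicate 2. Casp1 has 10 to 76 counts per library, which limits the precision of its fold changes.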

Other observations

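Casp12 lay between 85.9 and 129 CPM in the 6 libraries of the overexpression arm, and between 43.3 and 70.0 CPM in the 12 libraries of the knockdown arm, with and without LPS. Over the 6 libraries of the overexpression arm, Casp1 and Casp4 averaged 2.47 and 21.2 CPM in Irf3_2D cells, against 1.05 and 14.7 CPM in EGFP cells. Arm, vector and culture time cannot be told apart, and the levels were not compared by a test.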
